A study of Mus musculus with 14 samples.

Results

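Most of the 40 genes described here build, carry, bind or remodel the glycosaminoglycans of the aortic valve leaflet, while Nid1 and Nid2 encode nidogens of the basement membrane. All 40 were chosen by symbol, as a list of proteoglycan core proteins, nidogens, hyaluronan genes and chain enzymes, out of 56941 genes in the count table. Earlier results of these data were known when the list was made. Shares of members are therefore set beside those of all genes as description only, and no test was run on them. They were grouped by role into 1 large aggregating proteoglycan, 10 small leucine-rich proteoglycans, 4 basement membrane genes, 9 cell surface proteoglycans, 3 hyaluronan synthases, 3 hyaluronan binding proteins or receptors, 3 genes of hyaluronan degradation, 5 chondroitin and dermatan chain enzymes and 2 enzymes that make UDP-sugars. The mean count reached 10 in 39 of them. Kera, which encodes keratocan, did not, and was counted only in Ctrl 1, Ctrl 3 and AngII 1. Leaflets came from 14 male wild-type C57BL/6J mice, 8 weeks old at the start, all fed a Western diet. Ctrl mice (n = 4) were labelled untreated. LY mice (n = 2) received the HTR2B antagonist LY272015 at 3 mg/kg, HTR2B being a serotonin receptor. AngII mice (n = 4) received angiotensin II at 1000 ng/kg/min from an osmotic pump for 28 days, and AngII+LY mice (n = 4) received both agents. The sample annotation used here gives 48 h after pump removal for every AngII and AngII+LY mouse. The study's text says that a subset of infused mice had their pumps removed and were kept for 48 h more. It does not say whether the sequenced mice were among them. The labels of 4 of the 6 mice given the antagonist carry a compound number other than LY272015, and groups were taken from the sample titles. Each library came from leaflets dissected from a PBS-perfused heart, so it mixes interstitial, endothelial and other cells, and fewer cells of a type cannot be told apart from less RNA per cell.

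Proteoglycans are core proteins that carry sulfated sugar chains, and in the valve they fill the spongy middle layer, hold water and space the collagen fibrils. Small leucine-rich proteoglycans such as decorin, biglycan, lumican and fibromodulin bind collagen and set fibril diameter, and several of them also bind growth factors. Versican binds hyaluronan, a long unsulfated chain that is spun out at the plasma membrane by hyaluronan synthases and read by the receptor CD44. Chains are polymerised from UDP-sugars, sulfated or epimerised in the Golgi, and cut by hyaluronidases or lysosomal enzymes. Excess proteoglycan is a known feature of thickened, diseased aortic valves.

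Library totals ran from 20990655 counts in AngII 4 to 73128220 in AngII 2. Values below are normalized counts, which are counts divided by the library's TMM-scaled size and set to the mean library size. Levels of different genes are compared only per kilobase of exon. The mitochondrial share of counts was 4.0% to 7.52% for Ctrl mice and 8.62% to 9.77% for LY mice. It was 10.1% to 20.2% for AngII+LY mice and 9.83% to 25.5% for AngII mice, of which AngII 3 and AngII 4 had 24.7% and 25.5%. A GC trend was taken per library as the median log2 GC correction of genes under 40% GC minus that of genes over 55% GC. A higher value stands for relatively more counts in GC-poor genes. It was -0.80 to 0.03 in Ctrl, -0.28 to -0.07 in LY and 0.15 to 1.59 in AngII. In AngII+LY it was -0.44 to 0.33, a range that overlapped those of Ctrl and AngII. Fold changes were therefore also computed after a loess correction for GC content. Genes were called at an adjusted p under 0.05 and a log2 fold change beyond 0.5 in edgeR's quasi-likelihood test on 19145 genes, and members at an unadjusted p under 0.05 were counted beside that.

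In untreated valves decorin dominated the list. Dcn had 25006 ± 8948 normalized counts per kilobase (SD, n = 4). It was followed by Bgn at 10138 ± 4772 (SD, n = 4), Lum at 9038 ± 3862 (SD, n = 4) and Prelp at 8803 ± 2763 (SD, n = 4). Fmod came next at 3670 ± 1186 (SD, n = 4), below every Prelp value, while each of the genes above it overlapped its neighbour in the order. Dcn made up 28.3% to 36.8% of the summed level of all 40 genes in Ctrl mice. Outside the leucine-rich group the highest levels were those of Hyal2, a membrane-anchored hyaluronidase, at 2325 ± 718 (SD, n = 4), and Sdc4, a syndecan of focal adhesions, at 1855 ± 400 (SD, n = 4). Hyaluronan synthases were low, with Has2 at 53.3 ± 43.2, Has1 at 45.1 ± 14.9 and Has3 at 14.3 ± 3.56 normalized counts per kilobase (SD, n = 4). Cemip, a hyaluronan-depolymerising protein, and Kera closed the order at 3.07 and 1.65. Prelp and Fmod, and Has3 and Cemip, were the pairs of neighbours in the order whose Ctrl values did not overlap.

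Several members lie next to each other in the genome (GRCm39). Dcn (chromosome 10, 97315275 to 97358155) and Lum (97400990 to 97408577) are 42.8 kb apart and share a strand with Kera. Aspn, Omd and Ogn form a run on chromosome 13 with gaps of 14.9 and 15.1 kb. Prelp and Fmod are 107 kb apart on chromosome 1 and lie on opposite strands. Upstream sequences are shown for the 5 members with the smallest p in AngII+LY against AngII and for Cd44, which had the smallest p in AngII against Ctrl, because the results below turn on them. Each line gives the 250 bases before the GENCODE gene start in GRCm39, 5′ to 3′ on the gene's strand, with matches to 3 motifs in capitals.
Dcn, chr10:97315025-97315274, plus strand: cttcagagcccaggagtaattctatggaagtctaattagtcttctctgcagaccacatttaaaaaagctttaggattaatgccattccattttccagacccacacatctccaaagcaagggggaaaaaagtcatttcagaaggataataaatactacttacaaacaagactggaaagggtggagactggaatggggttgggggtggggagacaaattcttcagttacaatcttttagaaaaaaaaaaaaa
Lum, chr10:97400740-97400989, plus strand: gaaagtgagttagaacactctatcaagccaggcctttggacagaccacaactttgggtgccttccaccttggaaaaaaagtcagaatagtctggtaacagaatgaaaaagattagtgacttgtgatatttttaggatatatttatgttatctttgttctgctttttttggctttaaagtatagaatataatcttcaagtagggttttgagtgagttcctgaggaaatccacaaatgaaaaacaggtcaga
Fmod, chr1:133964742-133964991, plus strand: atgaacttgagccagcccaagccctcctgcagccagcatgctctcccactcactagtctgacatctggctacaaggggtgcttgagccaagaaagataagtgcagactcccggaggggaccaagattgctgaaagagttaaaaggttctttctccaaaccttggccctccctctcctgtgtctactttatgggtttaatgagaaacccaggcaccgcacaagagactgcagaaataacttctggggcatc
Nid1, chr13:13611821-13612070, plus strand: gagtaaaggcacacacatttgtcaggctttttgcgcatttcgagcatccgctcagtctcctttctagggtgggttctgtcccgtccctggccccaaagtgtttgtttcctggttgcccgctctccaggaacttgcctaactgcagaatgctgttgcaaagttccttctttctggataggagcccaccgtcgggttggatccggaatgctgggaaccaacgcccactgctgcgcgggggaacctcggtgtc
Chsy1, chr7:65758949-65759198, plus strand: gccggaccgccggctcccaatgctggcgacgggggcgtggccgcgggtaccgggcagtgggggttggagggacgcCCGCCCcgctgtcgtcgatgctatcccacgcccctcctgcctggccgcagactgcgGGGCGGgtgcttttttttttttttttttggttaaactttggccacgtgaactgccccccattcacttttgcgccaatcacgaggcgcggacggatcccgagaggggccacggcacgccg
Cd44, chr2:102732011-102732260, minus strand: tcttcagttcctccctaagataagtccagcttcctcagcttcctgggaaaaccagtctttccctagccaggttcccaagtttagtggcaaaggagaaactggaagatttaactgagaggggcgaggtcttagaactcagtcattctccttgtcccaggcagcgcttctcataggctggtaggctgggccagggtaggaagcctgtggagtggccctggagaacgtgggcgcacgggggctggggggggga

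The motifs searched on both strands were TATAAA (the TATA box), GGGCGG (a GC box, matched on the other strand as CCGCCC) and TGANTCA (the AP-1 site), and their matches did not overlap in these windows. Of the 6 windows only that of Chsy1 held a match, with 2 GC boxes. GC content was 38.4% before Dcn and 35.6% before Lum, against 66.8% before Chsy1. Over all 40 members, GGGCGG occurred in 18 windows (45.0%), beside 34.2% of the windows of 19042 tested genes. TATAAA occurred in 5 windows (12.5%, beside 10.1%) and TGANTCA in 1, that of Tnfaip6 (2.5%, beside 5.56%).

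The clearest difference across the list was a lower level of the small leucine-rich proteoglycans in mice given both agents. Their summed level per kilobase was 76308, 43084, 39886 and 74189 in the 4 Ctrl mice and 48223 and 83815 in the 2 LY mice. It was 63297, 66809, 58331 and 61634 in AngII mice and 37264, 29930, 34596 and 24710 in AngII+LY mice. All 4 AngII+LY mice lay below all 10 other mice, while AngII mice lay within the Ctrl range. As a share of all counts the same genes took 0.355% to 0.554% in AngII+LY and 0.73% to 1.52% in the others. Over the whole list, members took 0.489% to 0.719% of counts in AngII+LY mice, against 0.932% to 1.69% in Ctrl, 1.03% to 1.75% in LY and 0.954% to 1.48% in AngII mice.

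**Figure D1:**
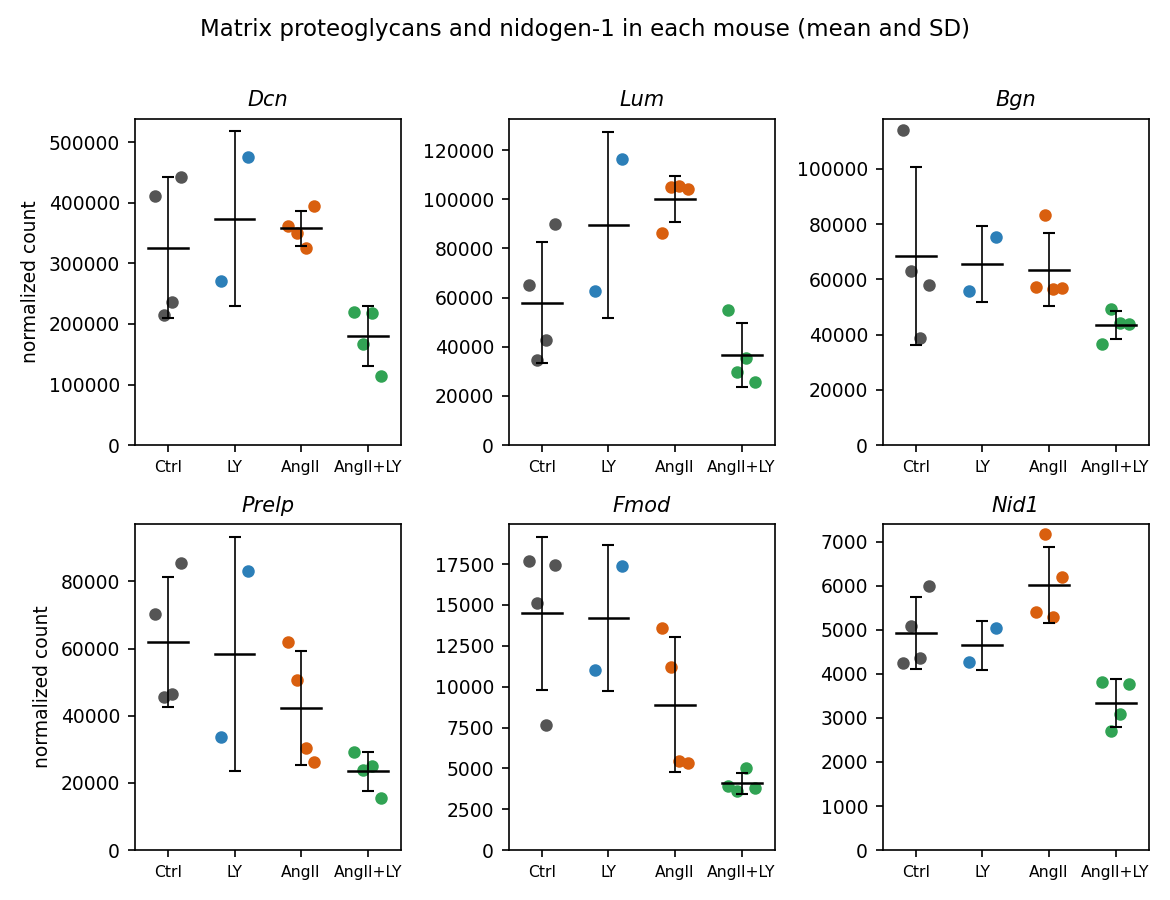
Normalized counts (vertical axes, linear from 0) of Dcn, Lum, Bgn, Prelp, Fmod and Nid1 in each of the 14 mice, by group (horizontal axes), with group means and SDs. Fmod and Nid1 in the 4 AngII+LY mice lie below all 10 other mice, and Lum in the 4 AngII mice lies between 86154 and 105477.

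No member and no gene reached an adjusted p under 0.05 in edgeR's test in any of 5 contrasts (0.0% of genes in each), so the members are described by unadjusted p and by DESeq2, the tool of the study, on the same genes. Other fits called a few members at an adjusted p under 0.05. In AngII+LY against AngII limma called Lum and Nid1, edgeR's newer quasi-dispersion called Nid1, and edgeR without AngII 1 called Lum, Nid1 and Sdc2. For AngII+LY against Ctrl edgeR called Fmod without the filter on low counts and without AngII 3 and AngII 4, and in AngII against Ctrl it called Sdc2 and Cd44 without AngII 1. In AngII against Ctrl, the contrast that shows the infusion, 8 of 39 members (20.5%) were higher at an unadjusted p under 0.05, beside 13.4% of all genes, and 1 (2.56%) was lower, beside 11.7%. DESeq2 called 6 higher and 0 lower, beside 9.16% and 4.75% of genes. Groups did not overlap for 1 member, Cd44, which was higher, beside 7.46% of genes higher and 7.56% lower. The median log2 fold change of the members was -0.05, with 19 higher and 20 lower, beside -0.06 over all genes. With the GC correction 5 members were higher and 3 lower at an unadjusted p under 0.05, beside 6.23% and 8.28% of genes. Of the 8 higher members Gpc3, Has1, Cd44 and Chst11 were still among these, Chsy1 was added, and the 3 lower were Dcn, Ogn and Tnfaip6. All of 6 DESeq2 calls were lost when some single mouse was left out, and with AngII 3 and AngII 4 both left out 2 of the 9 members, Cd44 and Chst11, stayed at an unadjusted p under 0.05 and Chsy1 was added. With the level of 12 cardiomyocyte markers in each mouse as a covariate all 9 stayed. Chsy1 and Ugdh were added as higher and Fmod and Sdc3 as lower.

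AngII+LY against AngII, which shows the antagonist during infusion, gave only lower members at the unadjusted threshold. At an unadjusted p under 0.05, 16 members (41.0%) were lower, beside 12.4% of all genes, and 0 were higher, beside 10.1%. DESeq2 called 7 lower (17.9%) and 0 higher, beside 5.54% and 5.34% of genes. Groups did not overlap for 10 members (25.6%), all lower, beside 5.66% of genes lower and 5.45% higher. The median log2 fold change was -0.60 with 29 of 39 members lower, beside -0.02 over all genes. After the GC correction the median was -0.41 with 32 lower, beside 0.00, and 10 members were lower and 0 higher at an unadjusted p under 0.05, beside 7.18% and 8.61% of genes. Of the 16 lower members 7 were among these 10 (Lum, Fmod, Prelp, Nid1, Gpc3, Chsy1 and Dse), and Bgn, Sdc1 and Chst11 were added. The other 9 had GC-corrected log2 fold changes between -0.65 and -0.22. With the cardiomyocyte covariate only Lum, Nid1 and Aspn of the 16 stayed at an unadjusted p under 0.05. The other 13 had log2 fold changes between -0.78 and -0.12. The share of counts of the 12 markers did not overlap between these groups (2.13% to 4.48% in AngII+LY, 0.855% to 1.76% in AngII). The covariate fit therefore cannot separate the markers from the antagonist in this contrast. In that fit Sdc4 and Gpc6 were higher, at 0.65 and 0.95. Without AngII 3 and AngII 4, 8 of the 16 stayed, and 8 stayed without each mouse in turn.

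AngII+LY against Ctrl gave 9 lower members (23.1%) at an unadjusted p under 0.05, beside 6.14% of all genes, and 1 higher member, Has1, beside 4.89%. DESeq2 called Fmod, Prelp and Sdc3 lower and 0 members higher, beside 0.951% and 0.841% of genes. Groups did not overlap for 4 members, all lower, beside 4.89% of genes lower and 3.27% higher. With the GC correction 9 were lower and 1 higher, beside 7.35% and 5.12% of genes. These held 8 of the 9 lower members, with Sdc1 lost and Lum added. All 12 cardiomyocyte markers were higher in this contrast too, with a median log2 fold change of 1.11 and 7 at an unadjusted p under 0.05. With them as a covariate only Fmod, Prelp and Nid1 of the 9 stayed, Dcn went from -0.86 to -0.32, Bgn from -0.66 to -0.14 and Sdc3 from -1.56 to -0.89, and Has1 had an unadjusted p of 0.0685. Members added at an unadjusted p under 0.05 in that fit were Gpc6, Cd44 and Chst11, which were higher, and Gpc1 and Hapln3, which were lower. The 3 contrasts share mice, so their values are given side by side and not as independent results.

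**Figure D2:**
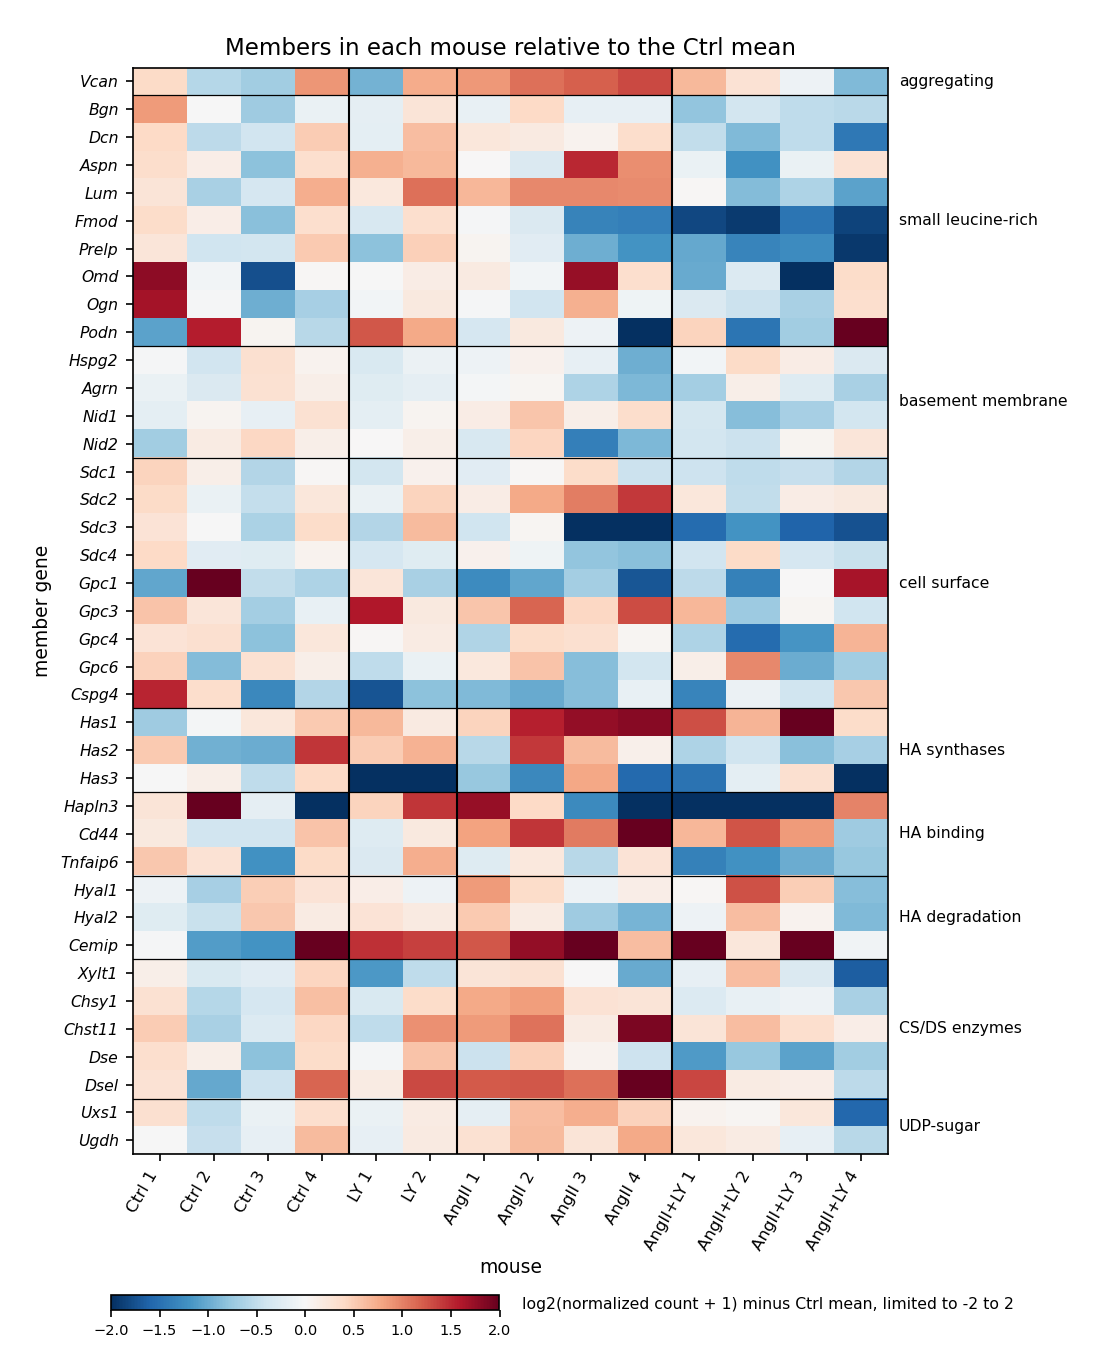
Each of the 39 members (rows, ordered by role) in each of the 14 mice (columns), as log2(normalized count + 1) minus the Ctrl mean, with colours limited to -2 and 2. The leucine-rich rows are mostly blue in the 4 AngII+LY columns, Podn in AngII+LY 4 excepted, and Gpc1 is dark red in Ctrl 2 and AngII+LY 4.

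Vcan, the large hyaluronan-binding proteoglycan of the valve, followed the infusion and not the combination. Its normalized counts were 6243, 3237, 2968 and 8855 in Ctrl mice, 2491 and 8048 in LY mice, 8763, 10274, 10998 and 11948 in AngII mice, and 7557, 5850, 4456 and 2611 in AngII+LY mice. All AngII mice lay above all AngII+LY mice, and 1 Ctrl mouse lay within the AngII range. Its log2 fold change was 0.98 (SE 0.42, unadjusted p = 0.0337, adjusted p = 0.163, edgeR) in AngII against Ctrl and -1.04 (SE 0.42, unadjusted p = 0.026, adjusted p = 0.163, edgeR) in AngII+LY against AngII. Vcan has a GC content of 42.3%, and after the GC correction these were 0.46 and -0.62.

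Among the leucine-rich genes, Lum had the most negative log2 fold change in AngII+LY against AngII in the uncorrected fit, and Fmod with the GC correction. Lumican spaces collagen fibrils. Lum had 64977, 34499, 42731 and 89746 normalized counts in Ctrl mice, 62745 and 116328 in LY mice, 86154, 105164, 105477 and 104119 in AngII mice, and 55110, 29752, 35380 and 25883 in AngII+LY mice. AngII and AngII+LY mice were fully separated, and AngII overlapped Ctrl through Ctrl 4. In AngII+LY against AngII the log2 fold change was -1.46 (SE 0.32, unadjusted p = 0.00049, adjusted p = 0.0588, edgeR), and DESeq2 gave an adjusted p of 0.000695 that held below 0.05 without each mouse in turn. In AngII against Ctrl it was 0.79 (SE 0.32, unadjusted p = 0.0266, adjusted p = 0.145, edgeR), and the direction flipped to -0.004 with the GC correction. The GC-corrected value for AngII+LY against AngII was -0.89 (unadjusted p = 0.00182).

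Dcn, the fibril-binding proteoglycan and neighbour of Lum, was lower in AngII+LY mice too. Its normalized counts were 410248, 214717, 236931 and 441696 in Ctrl, 271175 and 475603 in LY, 362317, 350609, 324773 and 393796 in AngII, and 220313, 167539, 217916 and 114781 in AngII+LY. All AngII+LY mice lay below all AngII mice, but 2 of them lay above Ctrl 2. On the log2 scale Dcn differed by -0.99 (SE 0.29, unadjusted p = 0.00445, adjusted p = 0.0848, edgeR; DESeq2 adjusted p = 0.0101) against AngII and -0.86 (SE 0.29, unadjusted p = 0.011, adjusted p = 0.327, edgeR) against Ctrl. After the GC correction the first shrank to -0.41 and the second grew to -1.06, and AngII against Ctrl moved from 0.14 to -0.65.

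Fmod separated mice given both agents from every other mouse. Fibromodulin binds collagen at sites it shares with lumican. Fmod had 17680, 15133, 7674 and 17438 normalized counts in Ctrl, 11038 and 17355 in LY, 13587, 11228, 5459 and 5354 in AngII, and 3895, 3635, 5015 and 3805 in AngII+LY. AngII 3 and AngII 4, the libraries with the highest mitochondrial share, were the lower pair of AngII mice. Against Ctrl the log2 fold change in AngII+LY was -1.83 (SE 0.34, unadjusted p = 9.58e-05, adjusted p = 0.141, edgeR), and DESeq2 gave an adjusted p of 5.89e-05 and called Fmod without each mouse in turn. Against AngII it was -1.12 (SE 0.33, unadjusted p = 0.00451, adjusted p = 0.0854, edgeR; DESeq2 adjusted p = 0.012), and -1.34 with the GC correction. In AngII against Ctrl it was -0.70 (SE 0.33, unadjusted p = 0.0523) and -0.22 without AngII 3 and AngII 4.

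Prelp, whose product ties basement membranes to connective tissue, had the same order of groups as Fmod. Its normalized counts were 70325, 45438, 46429 and 85371 in Ctrl, 33666 and 82978 in LY, 61829, 50762, 30468 and 26173 in AngII, and 29331, 23774, 25008 and 15629 in AngII+LY. All AngII+LY mice lay below all Ctrl and LY mice, and AngII 3 and AngII 4 lay among or next to them. Prelp differed by a log2 fold change of -1.40 against Ctrl (SE 0.35, unadjusted p = 0.00139, adjusted p = 0.229, edgeR; DESeq2 adjusted p = 0.00857) and -0.85 against AngII (SE 0.35, unadjusted p = 0.0284, adjusted p = 0.17, edgeR).

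Bgn, the other abundant leucine-rich gene, encodes biglycan. It had 114172, 63143, 38719 and 57803 normalized counts in Ctrl, 55978 and 75455 in LY, 57164, 83225, 56618 and 56853 in AngII, and 36546, 49157, 44345 and 43761 in AngII+LY. All AngII mice lay above all AngII+LY mice, while Ctrl 3 lay within the AngII+LY range. Bgn had log2 fold changes of -0.55 against AngII (SE 0.28, unadjusted p = 0.0731) and -0.66 against Ctrl (SE 0.28, unadjusted p = 0.0358, adjusted p = 0.407, edgeR), the latter -0.29 without Ctrl 1.

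The remaining leucine-rich genes were lower and more variable. Aspn, encoding asporin, had log2 fold changes of -0.92 against AngII (SE 0.40, unadjusted p = 0.0365, adjusted p = 0.192, edgeR) and -0.27 against Ctrl. The first of these was -0.52 without AngII 3, which had 3784 normalized counts against 1084 to 2538 in the other AngII mice, and -0.22 with the GC correction. Ogn and Omd, at 35.6% GC among the GC-poorest members, did not pass the unadjusted threshold in the uncorrected fit of any contrast. With the GC correction Ogn went from -0.30 to -1.28 in AngII against Ctrl (unadjusted p = 0.0166). Podn, encoding podocan, was the only leucine-rich gene with a positive value in AngII+LY against AngII in the uncorrected fit, a log2 fold change of 1.55 (unadjusted p = 0.0902), and this rested on AngII+LY 4 with 2542 normalized counts against 140.9 to 531.4 in the other AngII+LY mice.

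Of the basement membrane genes only Nid1 stood apart. Nidogen-1 links laminin to type IV collagen. Nid1 had 4246, 5079, 4356 and 6003 normalized counts in Ctrl, 4259 and 5037 in LY, 5411, 7175, 5280 and 6191 in AngII, and 3805, 2702, 3080 and 3761 in AngII+LY. All AngII+LY mice lay below all 10 other mice, and of 39 members this was so only for Nid1 and Fmod, beside 0.538% of all genes, while 0 members lay above all other mice. This comparison with all other mice was chosen after the values were seen. For Nid1 the log2 fold change was -0.85 against AngII (SE 0.18, unadjusted p = 0.000275, adjusted p = 0.0588, edgeR), DESeq2 gave an adjusted p of 0.000723 that held without each mouse, and the GC-corrected value was -0.79. Against Ctrl it was -0.56 (SE 0.18, unadjusted p = 0.00661, adjusted p = 0.288, edgeR). Nid2, Hspg2 (perlecan) and Agrn (agrin) had log2 fold changes between -0.01 and 0.31 in AngII+LY against AngII, and none passed an unadjusted p of 0.05 in that contrast.

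**Figure D3:**
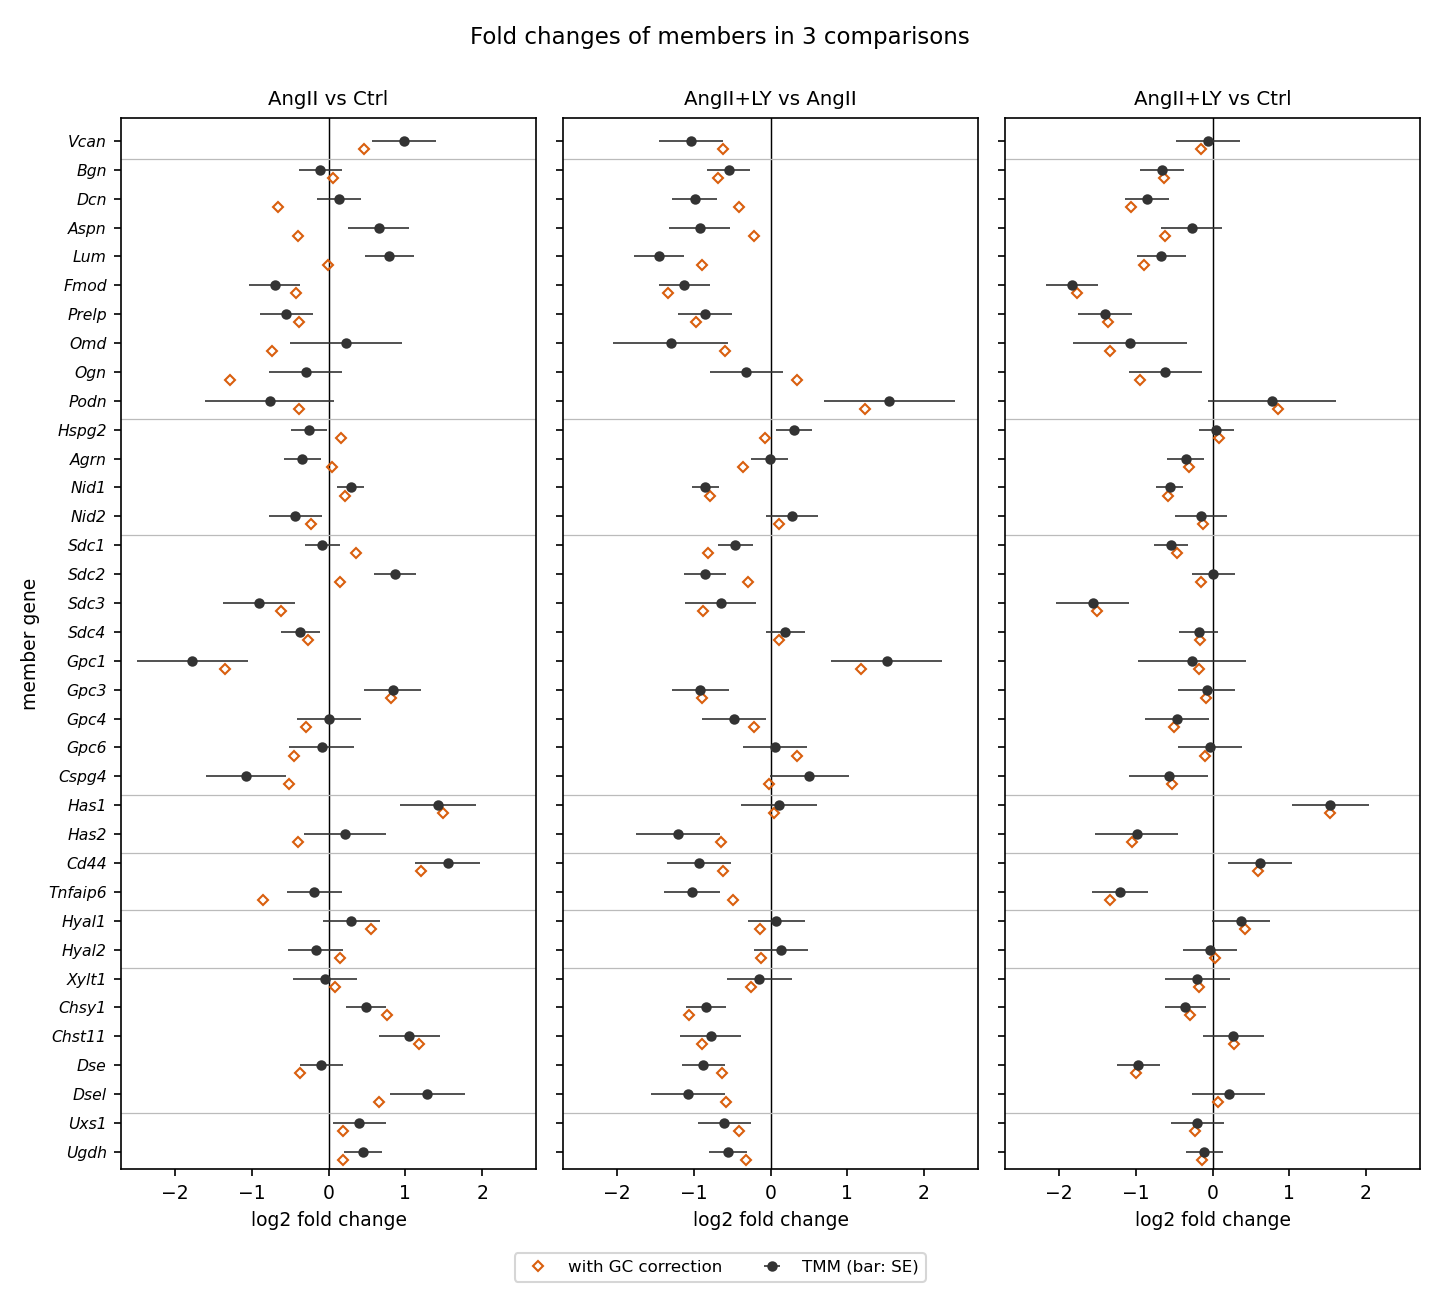
Log2 fold changes (horizontal axes) of 36 members (rows, ordered by role; Has3, Hapln3 and Cemip left out) in AngII against Ctrl, AngII+LY against AngII and AngII+LY against Ctrl. Black points with bars give the TMM-normalized fit with its SE, and open diamonds the GC-corrected fit, which moves Lum in AngII against Ctrl from 0.79 to -0.004 and Nid1 in AngII+LY against AngII only from -0.85 to -0.79.

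Cell surface proteoglycans divided. Sdc2, a syndecan, had 9332, 6525, 5175 and 8400 normalized counts in Ctrl, 6559 and 9743 in LY, 7936, 12088, 14632 and 19023 in AngII, and 8363, 5108, 7963 and 8239 in AngII+LY. Except for AngII 1, the AngII mice lay above all mice of the other groups. For Sdc2 the log2 fold change was 0.87 in AngII against Ctrl (SE 0.28, unadjusted p = 0.00733, adjusted p = 0.0895, edgeR; DESeq2 adjusted p = 0.0191) and -0.86 in AngII+LY against AngII (SE 0.28, unadjusted p = 0.00797, adjusted p = 0.104, edgeR; DESeq2 adjusted p = 0.0316). Sdc2 has 40.7% GC, and the corrected values were 0.15 and -0.30.

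Sdc3, another syndecan, differed in sign from Sdc2 in AngII against Ctrl, with a log2 fold change of -0.91 (SE 0.47, unadjusted p = 0.0734, edgeR). In AngII+LY against AngII both were negative, Sdc3 at -0.65 (SE 0.47, unadjusted p = 0.185, edgeR). Sdc3 had 16211, 13333, 8661 and 17360 normalized counts in Ctrl, 8969 and 20712 in LY, 10212, 13865, 2936 and 2604 in AngII, and 4611, 5844, 4410 and 3998 in AngII+LY. All AngII+LY mice lay below all Ctrl mice, and the AngII mice lay on both sides of AngII+LY, with AngII 3 and AngII 4 the lowest of all 14. Sdc3 had a log2 fold change of -1.56 in AngII+LY against Ctrl (SE 0.48, unadjusted p = 0.0055, adjusted p = 0.283, edgeR; DESeq2 adjusted p = 0.0369).

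Gpc3, a lipid-anchored glypican, had 2441, 1943, 1026 and 1480 normalized counts in Ctrl, 4978 and 1875 in LY, 2405, 3670, 2177 and 4047 in AngII, and 2606, 994.3, 1684 and 1246 in AngII+LY. The groups overlapped, with LY 1 the highest mouse. Its log2 fold change was 0.84 (SE 0.37, unadjusted p = 0.0423, adjusted p = 0.182, edgeR) in AngII against Ctrl and -0.91 (SE 0.38, unadjusted p = 0.0287, adjusted p = 0.171, edgeR) in AngII+LY against AngII. It was among the few members whose values barely moved with the GC correction, at 0.81 and -0.90.

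Sdc1 was lower in AngII+LY than in Ctrl by the unadjusted test. It had 3379, 2667, 1649 and 2500 normalized counts in Ctrl and 1843, 1740, 1791 and 1639 in AngII+LY, a narrow range within which Ctrl 3 lay. Its log2 fold change was -0.54 (SE 0.23, unadjusted p = 0.0314, adjusted p = 0.399, edgeR). Gpc1, another glypican, gave the largest negative value in AngII against Ctrl, -1.77 (SE 0.72, unadjusted p = 0.028, adjusted p = 0.149, edgeR), but it rested on Ctrl 2, which had 25886 normalized counts against 2859, 4185 and 3800 in the other Ctrl mice. Without Ctrl 2 the value was -0.43 with an unadjusted p of 0.44. AngII mice had 2440, 2858, 3643 and 1793, and AngII+LY 4 stood high at 18388. Gpc4, Gpc6 and Sdc4 did not pass the unadjusted threshold in the uncorrected fit of any contrast.

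Of the hyaluronan synthase, binding and degradation genes, only Cd44 and Has1 passed the unadjusted threshold in AngII against Ctrl. Cd44 had the smallest p of all members there. Cd44, the hyaluronan receptor, had 5491, 3647, 3678 and 7059 normalized counts in Ctrl, 4002 and 5446 in LY, 8317, 12871, 9854 and 27242 in AngII, and 7600, 11466, 8607 and 2904 in AngII+LY. All AngII mice lay above all Ctrl and LY mice, and 3 of 4 AngII+LY mice also lay above every Ctrl mouse, AngII+LY 4 being the lowest of all 14. Cd44 had a log2 fold change of 1.55 in AngII against Ctrl (SE 0.43, unadjusted p = 0.0027, adjusted p = 0.0664, edgeR; DESeq2 adjusted p = 0.00359), 1.21 with the GC correction and 1.06 without AngII 4. DESeq2 did not call Cd44 in that contrast without AngII 4. Its change from AngII to AngII+LY was -0.93 (SE 0.42, unadjusted p = 0.0442, adjusted p = 0.209, edgeR), and -0.44 without AngII 4.

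Has1, which makes hyaluronan at the cell membrane, was higher in both infused groups. It had 118.9, 189.9, 226.9 and 279.2 normalized counts in Ctrl, 306.9 and 219.6 in LY, 265.7, 573.5, 662.1 and 691.5 in AngII, and 475.1, 311.3, 1325 and 251.9 in AngII+LY. In each infused group 3 of 4 mice lay above every Ctrl mouse. For Has1 it was 1.43 on the log2 scale in AngII against Ctrl (SE 0.50, unadjusted p = 0.013, adjusted p = 0.109, edgeR; DESeq2 adjusted p = 0.0265) and 1.53 in AngII+LY against Ctrl (SE 0.50, unadjusted p = 0.00854, adjusted p = 0.307, edgeR). The second was 0.76 without AngII+LY 3. Between AngII+LY and AngII it was 0.11 (SE 0.49), and the corrected values for the other contrasts were 1.49 and 1.53.

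Has2, the synthase that builds the embryonic cardiac cushions, had a log2 fold change of -1.20 in AngII+LY against AngII (SE 0.54, unadjusted p = 0.0439, adjusted p = 0.209, edgeR). AngII+LY mice had 133.2, 156.3, 115.2 and 130.3 normalized counts, beside 102.6 to 559.0 in Ctrl and 139.6 to 549.7 in AngII. All 4 lay within the Ctrl range and 1 of them within the AngII range. The value was -0.65 with the GC correction and -0.35 with the cardiomyocyte covariate. Tnfaip6, whose product TSG-6 moves heavy chains onto hyaluronan, was lower in AngII+LY mice. It had 869.4, 728.9, 257.1 and 774.3 normalized counts in Ctrl, 489.5 and 984.3 in LY, 500.4, 689.3, 405.0 and 721.3 in AngII, and 233.4, 255.7, 298.0 and 351.5 in AngII+LY. Only Ctrl 3 of the other groups lay within the AngII+LY range. The log2 fold change was -1.02 against AngII (SE 0.37, unadjusted p = 0.0144, adjusted p = 0.127, edgeR) and -1.21 against Ctrl (SE 0.37, unadjusted p = 0.00534, adjusted p = 0.281, edgeR). With the GC correction the first was -0.49 (unadjusted p = 0.178) and the second -1.34.

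The hyaluronidase genes Hyal1 and Hyal2, 3.96 kb apart on chromosome 9, had log2 fold changes between -0.17 and 0.37 in the 3 contrasts with infused mice. Hapln3, a link protein, and Cemip were counted at single-mouse peaks. Hapln3 had 195.8 normalized counts in Ctrl 2 and was at 0 in AngII 4, AngII+LY 2 and AngII+LY 3, and Cemip ranged from 8.644 to 180.3 over the 14 mice. Neither these nor Hyal1 and Hyal2 passed the unadjusted threshold in the uncorrected fit of any contrast.

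**Figure D4:**
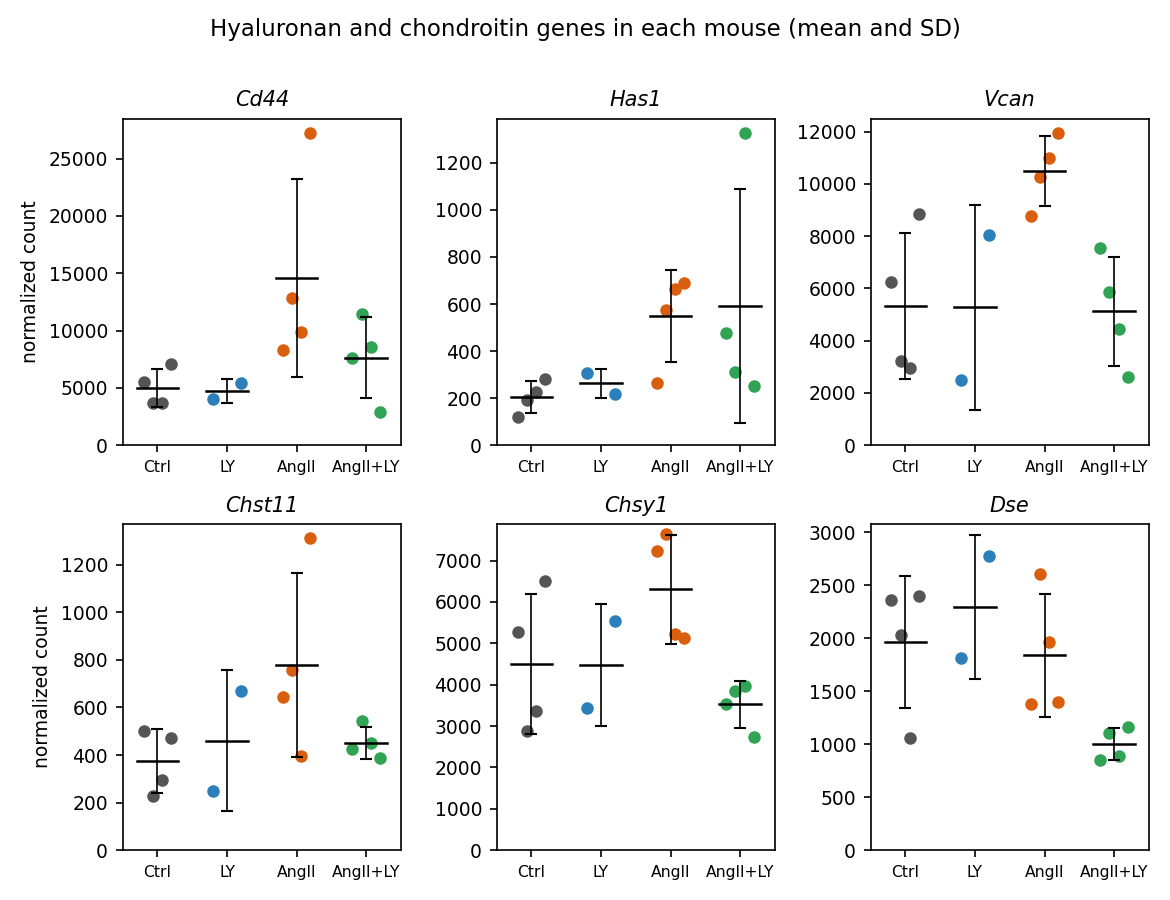
Normalized counts (vertical axes, linear from 0) of Cd44, Has1, Vcan, Chst11, Chsy1 and Dse in each of the 14 mice, by group (horizontal axes), with group means and SDs. Cd44 in the 4 AngII mice lies between 8317 and 27242, above all Ctrl and LY mice, and Dse in the 4 AngII+LY mice lies between 852.7 and 1157.

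The 5 chain enzymes had log2 fold changes from -1.08 to -0.15 in AngII+LY against AngII, with a median of -0.84, where 9747 of all 19145 genes were below 0. The smallest was that of Xylt1, which starts the chain (unadjusted p = 0.735). Chsy1, a chondroitin polymerase, had 5271, 2872, 3375 and 6504 normalized counts in Ctrl, 3441 and 5528 in LY, 7241, 7638, 5232 and 5119 in AngII, and 3534, 3854, 3977 and 2730 in AngII+LY. AngII and AngII+LY mice did not overlap, and Ctrl mice spanned both. The log2 fold change in AngII+LY against AngII was -0.84 (SE 0.27, unadjusted p = 0.00685, adjusted p = 0.0982, edgeR; DESeq2 adjusted p = 0.024), and -1.07 with the GC correction. With the cardiomyocyte covariate it was -0.31 (unadjusted p = 0.257).

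Dse, an epimerase that turns chondroitin into dermatan sulfate, had 2356, 2034, 1059 and 2400 normalized counts in Ctrl, 1809 and 2771 in LY, 1381, 2603, 1966 and 1400 in AngII, and 852.7, 1108, 892.6 and 1157 in AngII+LY. All AngII+LY mice lay below all LY and AngII mice, and Ctrl 3 lay among them. The log2 fold change was -0.88 against AngII (SE 0.28, unadjusted p = 0.0076, adjusted p = 0.103, edgeR; DESeq2 adjusted p = 0.0303) and -0.97 against Ctrl (SE 0.28, unadjusted p = 0.00393, adjusted p = 0.265, edgeR).

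Its relative Dsel had 1318, 527.3, 808.2 and 2405 normalized counts in Ctrl, 1211 and 2682 in LY, 2518, 2556, 2326 and 4963 in AngII, and 2719, 1209, 1178 and 751.9 in AngII+LY. The AngII range met that of Ctrl at Ctrl 4 and that of AngII+LY at AngII+LY 1. The log2 fold change was 1.29 in AngII against Ctrl (SE 0.49, unadjusted p = 0.0192, adjusted p = 0.128, edgeR; DESeq2 adjusted p = 0.0335), 0.96 without AngII 4 and 0.66 with the GC correction. Chst11, a chondroitin 4-sulfotransferase, had 503.2, 226.6, 295.0 and 472.2 normalized counts in Ctrl and 642.0, 757.4, 397.8 and 1314 in AngII. AngII 3 alone of the AngII mice lay within the Ctrl range. The log2 fold change was 1.05 (SE 0.40, unadjusted p = 0.0197, adjusted p = 0.129, edgeR; DESeq2 adjusted p = 0.0451), 1.18 with the GC correction and 0.68 without AngII 4.

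Ugdh, which makes the UDP-glucuronate that all these chains need, had 7456, 9356, 7176 and 10224 normalized counts in AngII and 7089, 6740, 5400 and 4110 in AngII+LY. These groups did not overlap, by a gap of 7089 to 7176. The log2 fold change was -0.55 (SE 0.25, unadjusted p = 0.0407, adjusted p = 0.202, edgeR), but -0.32 (unadjusted p = 0.167) with the GC correction and -0.12 (unadjusted p = 0.64) with the cardiomyocyte covariate. Uxs1, which turns UDP-glucuronate into UDP-xylose, gave -0.60 and did not pass the unadjusted threshold.

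LY alone moved few members, in a group of 2 mice. Against Ctrl, 1 member was higher and 2 were lower at an unadjusted p under 0.05, beside 0.627% and 0.763% of all genes, and DESeq2 called 0 members among its 21 genes. Has3 had 1.534 and 10.5 normalized counts in LY mice against 89.36, 96.64, 62.67 and 117.7 in Ctrl, a log2 fold change of -3.91 (SE 1.59, unadjusted p = 0.0276, adjusted p = 1.0, edgeR). LY and Ctrl mice did not overlap for Has3, a synthase of shorter chains, but AngII+LY 4 was at 0 and AngII mice ranged from 29.78 to 153.8, and the LY values rest on few counts. Cspg4, the pericyte proteoglycan NG2, had 695.1 and 1304 normalized counts in LY against 6610, 2924, 934.6 and 1531 in Ctrl, with a log2 fold change of -1.59 (SE 0.68, unadjusted p = 0.035, adjusted p = 1.0, edgeR). LY 2 lay within the Ctrl range. Cspg4 did not stay at an unadjusted p under 0.05 with the GC correction (-1.50) or the cardiomyocyte covariate (-1.43). Neither Has3 nor Cspg4 stayed there without each mouse in turn. Gpc3 gave 0.99 (SE 0.44, unadjusted p = 0.041, adjusted p = 1.0, edgeR) and 0.12 without LY 1. The summed leucine-rich level of the LY mice was above that of Ctrl 2 and Ctrl 3 in both.

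The difference between the antagonist's effect with and without infusion was tested as an interaction. At an unadjusted p under 0.05 it was negative for 8 members (20.5%), beside 7.64% of all genes, and positive for 1, Cspg4, beside 5.66%. The negative members were Lum, Gpc3, Nid1, Dcn, Dse, Aspn, Sdc2 and Dsel. Lum had an interaction of -2.08 on the log2 scale (SE 0.49, unadjusted p = 0.000838, adjusted p = 0.295, edgeR; DESeq2 adjusted p = 0.0155). For Nid1 it was -0.77 (SE 0.28, unadjusted p = 0.0144, adjusted p = 0.3, edgeR). With the GC correction Lum, Nid1 and Gpc3 stayed at an unadjusted p under 0.05, the other 5 had values between -1.08 and -0.27, and Fmod and Chsy1 were added. Of the 8 only Lum stayed without each mouse in turn, with a highest unadjusted p of 0.0135 without LY 2. Without LY 2 the p was 0.0769 for Nid1, 0.186 for Dcn, 0.161 for Dse, 0.196 for Sdc2 and 0.258 for Dsel. It was 0.113 for Gpc3 and 0.124 for Cspg4 without LY 1, and 0.0672 for Aspn without AngII 3.

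GC content moved with the members' values. In AngII+LY against AngII all 9 tested members under 42% GC were lower, with a median of -1.02 beside -0.61 over all genes in that band. From 42% to 50% GC the medians were -0.58 for 12 members and -0.21 for all genes, and at 50% or more they were -0.08 for 18 members and 0.30 for all genes. In AngII against Ctrl they ran the other way, at 0.23, 0.43 and -0.36 for the members beside 0.79, 0.17 and -0.45. In AngII+LY against AngII the members' median lay below that of all genes in each of the 3 bands.

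Markers of other cells moved with the same contrasts. All 6 interstitial fibroblast markers (Col1a1, Col1a2, Col3a1, Pdgfra, Postn and Dpt) were lower in AngII+LY than in AngII, with a median log2 fold change of -0.88 and 4 at an unadjusted p under 0.05, and lower than in Ctrl, with a median of -1.04 and 5. Together they took 0.15% to 0.183% of counts in AngII+LY mice and 0.234% to 0.593% in the others. The ratio of leucine-rich to fibroblast marker counts was 2.36 to 3.17 in AngII+LY, 2.33 to 3.65 in AngII, 2.47 to 3.26 in Ctrl and 3.09 to 3.42 in LY, so the groups overlapped in it. All 12 cardiomyocyte markers were higher in AngII+LY than in AngII, with a median of 1.38 and 9 at an unadjusted p under 0.05. Their share of counts was 2.13% to 4.48% for AngII+LY mice and 0.855% to 1.76% for AngII mice, beside 0.931% to 3.26% for Ctrl mice and 1.79% to 2.1% for LY mice. Smooth muscle markers took 0.882% of counts in Ctrl 1 and at most 0.155% in any other mouse. All 6 were lower in AngII than in Ctrl, with a median log2 fold change of -2.96 and 5 at an unadjusted p under 0.05. In LY against Ctrl all 6 were lower too, with a median of -3.46 and 4 at that threshold. For AngII+LY the medians were -1.31 against Ctrl and 1.62 against AngII, with 0 at that threshold in both. No marker of these lists was at 0 in any group. The part of these cells in the members' values was not tested beyond the covariate fit above. In AngII+LY against AngII that fit cannot separate cardiomyocyte markers from the antagonist, because their shares did not overlap.

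**Figure D5:**
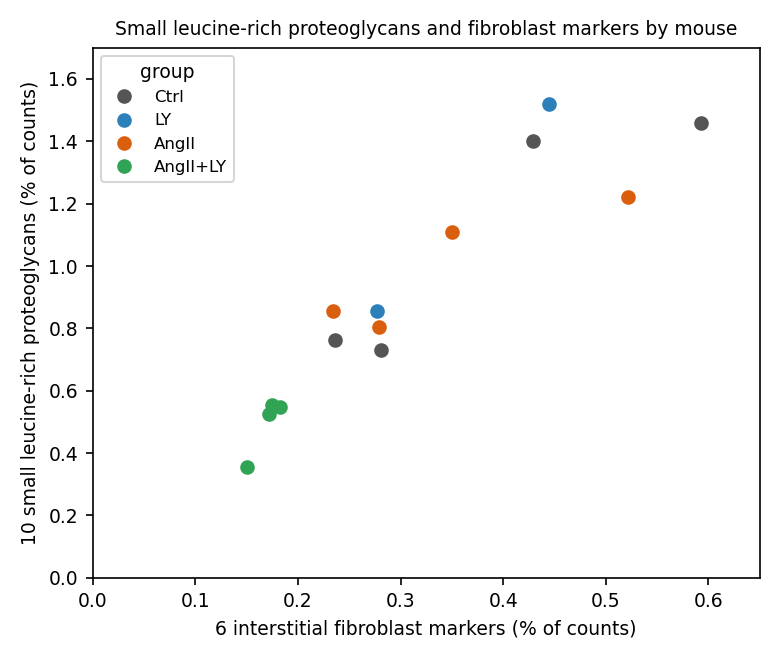
Percent of counts taken by the small leucine-rich proteoglycans (vertical axis) against percent taken by 6 interstitial fibroblast markers (horizontal axis), 1 point per mouse, coloured by group. The 4 AngII+LY mice are lowest on both axes, at 0.355% to 0.554% and 0.15% to 0.183%.

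The wider pathway was followed in 6 further lists. Among 22 other proteoglycan cores, of which 18 were tested, 2 were higher (11.1%) and 0 lower in AngII against Ctrl at an unadjusted p under 0.05, beside 13.4% and 11.7% of all genes. Srgn, the granule proteoglycan serglycin, gave a log2 fold change of 2.18 (SE 0.53, adjusted p = 0.0584, edgeR), with 12963 to 71832 normalized counts in AngII and 3781 to 12273 in Ctrl. Col15a1 gave 1.09. Of these cores 4 were lower (22.2%) and 0 higher in AngII+LY against AngII, beside 12.4% and 10.1% of all genes, among them Prg4 (lubricin, -1.67), Ecm2 (-1.21, but -0.73 with the GC correction) and Tgfbr3 (betaglycan, -0.47). Regardless of p, 10 of the 18 were above 0 and 8 below in that contrast, with a median log2 fold change of 0.19. Srgn had no overlap between AngII and Ctrl.

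Of 12 other hyaluronan genes tested, 1 was higher (8.33%, beside 10.1% of all genes) and 4 were lower (33.3%, beside 12.4%) in AngII+LY against AngII. Itih5, a heavy chain of inter-alpha-trypsin inhibitor, had 2085 to 4951 normalized counts in AngII+LY and 6299 to 10920 in AngII, a log2 fold change of -1.61 (SE 0.38, adjusted p = 0.0588, edgeR). Layn, a hyaluronan receptor, gave -1.11 and Itih2 -1.45. Neither Itih5 nor Layn overlapped between these groups. In AngII against Ctrl 3 were lower (25.0%) and 0 higher, beside 11.7% and 13.4% of all genes. Among them were Stab1, a scavenger receptor, at -0.98 (-0.64 with the GC correction), and Itih4 at -2.58. Itih4 ranged from 322.9 to 8404 normalized counts in Ctrl, with an SD (3899) above the mean (2568), and from 242.7 to 627.3 in AngII.

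In the list of precursor genes, Ugp2 separated AngII from Ctrl and Papss2 separated AngII+LY from AngII. Ugp2, which makes UDP-glucose, had 13092 to 32392 normalized counts in AngII against 6183 to 9039 in Ctrl, a log2 fold change of 1.48 (SE 0.29, adjusted p = 0.0573, edgeR; DESeq2 adjusted p = 0.000149). It was 0.91 with the GC correction. Papss2, which makes the sulfate donor, had 1828 to 2860 in AngII+LY against 4769 to 6419 in AngII, a log2 fold change of -1.24 (SE 0.27, adjusted p = 0.0588, edgeR; DESeq2 adjusted p = 0.00109). In this list of 12 tested genes 3 were higher (25.0%, beside 13.4% of all genes) and 1 lower (8.33%, beside 11.7%) in AngII against Ctrl at an unadjusted p under 0.05. Against AngII, in AngII+LY mice 0 were higher and 2 lower (16.7%, beside 12.4%).

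Of 17 linker and chondroitin enzymes tested, 0 were higher and 4 lower (23.5%) in AngII against Ctrl, beside 13.4% and 11.7% of all genes, among them Xylt2 (-0.77), Chpf (-1.06) and Chst14 (-0.88). With the GC correction these values were -0.35, -0.69 and -0.56. Of the same 17 enzymes 1 was higher (5.88%) and 0 were lower in AngII+LY against AngII, beside 10.1% and 12.4%, with a median log2 fold change of -0.09. Of 17 heparan sulfate enzymes 1 was higher (5.88%, beside 13.4% of all genes) and 3 were lower (17.6%, beside 11.7%) in AngII against Ctrl. Sulf1, an extracellular sulfatase, gave 0.79 there and -0.79 in AngII+LY against AngII. Among 6 proteoglycan-cleaving ADAMTS proteases 1 was higher (16.7%, beside 13.4% of all genes) and 0 lower (beside 11.7%) in AngII against Ctrl. That gene, Adamts9, was higher in both infused groups, with log2 fold changes of 1.18 in AngII (adjusted p = 0.08, edgeR) and 1.28 in AngII+LY (adjusted p = 0.254, edgeR) against Ctrl. It had 136.2 to 270.8 normalized counts in Ctrl, 332.9 to 691.5 with AngII alone and 327.6 to 596.6 with both agents, so neither infused group overlapped Ctrl.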

How the data were processed

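RNA from mouse aortic valve leaflets was sequenced. Per the labels and methods reads were checked with FastQC 0.12.1, trimmed, aligned with HISAT2 to GRCm39 and counted with featureCounts. The deposited table is named as normalized but holds whole-number counts per gene with unequal totals, so the authors' values were taken as raw counts. Among values under 20, even ones (45986) outnumbered odd ones (30917). The members and lists were chosen with earlier results of these data known. The 19145 genes whose counts averaged 10 or more entered 1 edgeR 4.0.16 quasi-likelihood fit of the 4 groups with TMM scaling and Benjamini-Hochberg adjustment (R 4.3.3), with the common dispersion at 0.353. DESeq2 1.42.0, limma 3.58.1 on log2(value + 1), other scalings and filters, a loess GC correction (span 0.3), a cardiomyocyte covariate and each mouse left out were alternatives. The fits were tested on simulated data. Members at an unadjusted p under 0.05, at most 10 per contrast by smallest p, were named with full values. Some members beyond that limit were also given with statistics, such as Gpc3, Aspn, Ugdh, Has2, Cd44 and Bgn in AngII+LY against AngII. The remaining members were given by role, and other pathway genes by at most 3 per list. A further pathway list is not reported here. Gene positions and exonic lengths came from GENCODE vM39. Counting intervals were narrow (a 95% Wilson interval of a share was at most 0.0373 points wide), 3 counts were 0.041 to 0.143 CPM, and both cover counting error only. Nothing in the labels pairs mice.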

Additional observations from a re-analysis of the deposited data

Results flagged for a closer look

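Of 117 groups of 4 mice examined (39 members in Ctrl, AngII and AngII+LY), 13 held a mouse far from the other 3. In these 13 the gap to the nearest mouse was at least 0.837 of the group's range. How often such a gap arises by chance in these counts was not tested. Among leucine-rich genes, Bgn had 83225 normalized counts in AngII 2 against 56618 to 57164 in the other AngII mice, Lum had 86154 in AngII 1 against 104119 to 105477, Omd had 598.4 in AngII 3 against 170.3 to 225.0, and Podn had 2542 in AngII+LY 4 against 140.9 to 531.4. Among cell surface genes, Sdc2 had 5108 in AngII+LY 2 against 7963 to 8363, Sdc4 had 6874 in AngII+LY 2 against 3865 to 4210, Gpc1 had 25886 in Ctrl 2 against 2859 to 4185, Gpc4 had 906.5 in Ctrl 3 against 1866 to 1995, and Cspg4 had 2058 in AngII 4 against 1135 to 1276. Among the others, Hapln3 had 195.8 in Ctrl 2 against 2.153 to 29.5 and 49.81 in AngII+LY 4 against 0 to 1.373, Cemip had 111.9 in Ctrl 4 against 8.644 to 20.82, and Dsel had 4963 in AngII 4 against 2326 to 2556. What set these mice apart was not tested.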

How the results depend on the processing

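Of 928 recomputed log2 fold changes of 32 named results, 926 kept their direction. The 2 reversals were Lum in AngII against Ctrl, at -0.004 with the GC correction and -0.021 with the replicate block and the GC correction. Where edgeR called 0 genes, DESeq2 called 2663 in AngII against Ctrl, 2082 in AngII+LY against AngII, 343 in AngII+LY against Ctrl, 21 in LY against Ctrl and 203 for the interaction. In the first 3 of these contrasts edgeR without the filter called 123, 1 and 13, limma called 0, 336 and 4, and edgeR's newer quasi-dispersion 555, 176 and 0. Without AngII 3 and AngII 4 it called 61 in AngII+LY against Ctrl, and leaving out 1 mouse gave 0 to 1726, 0 to 842 and 0 to 3. Members at an unadjusted p under 0.05 ranged over 3 to 13, 10 to 18, 7 to 12 and, for LY against Ctrl, 1 to 4 when 1 mouse was left out (9, 16, 10 and 3 with all). The 3 in AngII against Ctrl was without Ctrl 2 (5 without AngII 4) and the 10 in AngII+LY against AngII without AngII+LY 3. Without AngII 3 and AngII 4 there were 3 in AngII against Ctrl (2 of the 9) and 9 in AngII+LY against AngII (8 of the 16). In AngII+LY against AngII there were 10 with the GC correction (7 of the 16) and 5 with the cardiomyocyte covariate (3 of the 16 and 2 higher), and in LY against Ctrl 1 with limma. DESeq2 called 0 to 9, 4 to 10, 1 to 5 and 0 to 1 members without 1 mouse (6, 7, 3 and 0 with all), and with the GC correction 1, 5, 9 and 0. Members without overlap in AngII against Ctrl were 1 with TMM, 3 with RLE, 2 with upper-quartile scaling and 3 without mitochondrial counts. With limma the median log2 fold change of all genes in AngII against Ctrl was -0.15, beside -0.06. The cause of these changes was not tested.

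Mice with the same number do not share an animal, litter or batch in the labels, and 18 same-number pairs had correlations of -0.128 to 0.0897, so the replicate block is given only here. With it 9, 11, 8 and 1 members were at an unadjusted p under 0.05, and with the block and the GC correction 8, 9, 9 and 1. Depth bears most on the least counted members, Has3, Hapln3, Cemip and Kera, each of which was at 0 or near it in some mice.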
